A study of Mus musculus with 12 samples.

Results

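The glutathione transferases described here are 9 genes, *Gstm1*, *Gstm2*, *Gsta4*, *Gstp1*, *Gsto1*, *Gstt1*, *Mgst1*, *Mgst2* and *Mgst3*, of 18193 genes measured. They were taken by name, through the probe sets that the array annotation gives to these symbols alone. Of 34945 probe sets with a single gene symbol, 15 belonged to them: 4 for *Gstm1*, 2 each for *Gsto1*, *Mgst1* and *Mgst3*, and 1 for each other gene. Bone marrow-derived macrophages (BMDMs), grown from marrow cells for 7 days with M-CSF, were profiled on Affymetrix GeneChip mouse arrays, on which a set of short probes (probe set) reports on a transcript. The 4 groups held 3 arrays each: LPS-stimulated ΔTrspM, LPS-stimulated control, unstimulated ΔTrspM and unstimulated control. All mice were female, of strain c57bl6, and carried floxed *Trsp* alleles. ΔTrspM mice had the genotype Trspfl/fl-LysM-Cre+/- and control mice Trspfl/fl-LysM-Cre-/-. LPS, a bacterial lipopolysaccharide that activates toll-like receptor signaling, was given for 4 h at a dose not given for the arrays.

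*Trsp* encodes the selenocysteine tRNA that every selenoprotein needs, among them several glutathione peroxidases and thioredoxin reductases. Cre was driven by the lysozyme M promoter, which is active in macrophages and in other myeloid leukocytes, so cells of other origin in a culture keep *Trsp*. *Trsp* is not analysed here, and the arrays therefore give no check of the genotype labels. The labels call the arrays of a group biological replicates and do not say whether each came from its own mouse. The p-values measure the spread between these samples only.

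Glutathione transferases join the thiol of glutathione to reactive, electron-seeking compounds, which makes them soluble and lets export pumps remove them. The soluble enzymes fall into classes, here mu (*Gstm1*, *Gstm2*), alpha (*Gsta4*), pi (*Gstp1*), omega (*Gsto1*) and theta (*Gstt1*). *Mgst1*, *Mgst2* and *Mgst3* encode membrane enzymes of the MAPEG family, which also holds proteins that make prostaglandins and leukotrienes. Many genes of the family are known targets of NRF2, a transcription factor that is released when electrophiles or oxidants modify its inhibitor KEAP1 and that binds antioxidant response elements in promoters.

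Signals are given as log2 of the quantile-normalized signal after 16 was added, a scale whose lowest possible value is 4 and on which the changes of dim genes are understated. The median deposited signal was 17.7 on the array of LPS-stimulated ΔTrspM replicate 2, and 43.5 to 101.1 on the other 11 arrays. Replicate 2 had the lowest median of each group, at 17.7 and 43.5 in LPS-stimulated ΔTrspM and control cells and 61.1 and 76.7 in unstimulated ΔTrspM and control cells. Of 10 macrophage markers, *Adgre1*, *Csf1r*, *Cd68* and *Lyz2* were bright on every array, with lowest log2 signals of 13.26, 13.31, 12.77 and 13.13. The dimmest of the 10 were *Mertk*, *Itgam* and *Fcgr1*, with lowest log2 signals of 8.89, 9.69 and 10.88. Of 11 genes of the LPS response, 10 were higher after LPS in ΔTrspM cells and 10 in control cells at an adjusted p under 0.05 from limma, the threshold used throughout. Without LPS the replicate 2 arrays stood apart on these 11 genes. The log2 of their summed linear signal, normalized and without the added 16, was 11.90, 13.19 and 11.98 on unstimulated ΔTrspM replicates 1 to 3. On unstimulated control replicates 1 to 3 it was 11.59, 14.53 and 11.18. Such a sum is weighted toward the brightest genes. The same measure over 14 stromal markers, such as *Col1a1* and *Sparc*, was 12.53 to 14.30 in LPS-stimulated ΔTrspM cells, 12.67 to 13.55 in LPS-stimulated control cells, 11.07 to 14.32 in unstimulated ΔTrspM cells and 10.51 to 13.90 in unstimulated control cells. It was lowest on replicate 2 of every group. Summed over 11 neutrophil and progenitor markers the ranges were 13.07 to 14.36, 13.06 to 14.24, 12.36 to 13.55 and 12.78 to 13.71 in the same order of groups, again lowest on replicate 2. In such bulk samples fewer cells of a type and less RNA per cell cannot be told apart.

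**Figure D1:**
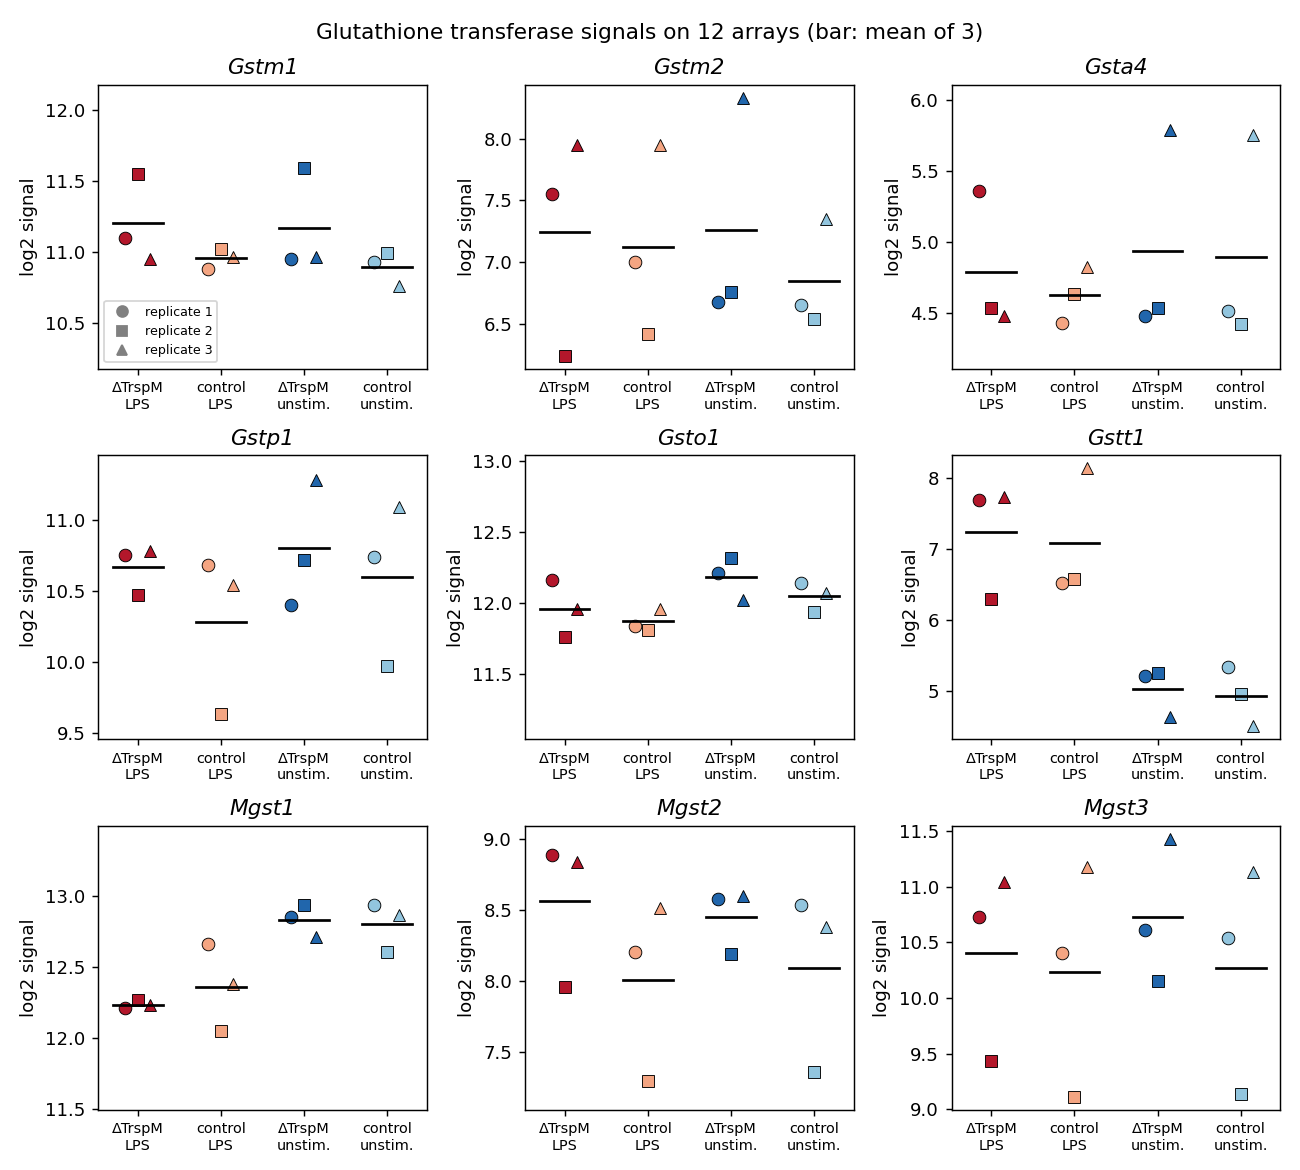
Log2 signal of the 9 glutathione transferases across the 12 arrays in their 4 groups. Point shape marks the replicate (circle 1, square 2, triangle 3), bars are group means, and the y axes differ between panels and do not start at 0. *Gstt1* is higher on all 6 LPS arrays than on any unstimulated array, *Mgst1* is lower after LPS within each same-numbered pair, and *Mgst2* and *Mgst3* are lowest on replicate 2 in each group.

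*Gstt1*, the theta-class enzyme that acts on small halogenated compounds, rose with LPS in macrophages of both genotypes. In ΔTrspM cells its log2 signal was 7.68, 6.29 and 7.73 on LPS replicates 1 to 3 and 5.21, 5.25 and 4.63 on unstimulated replicates 1 to 3. In control cells it was 6.52, 6.58 and 8.13 after LPS and 5.34, 4.96 and 4.50 without it. All 6 LPS arrays lay above all 6 unstimulated arrays, and each LPS culture was above the unstimulated culture of the same number. The group means were 7.23 ± 0.82 after LPS and 5.03 ± 0.34 unstimulated in ΔTrspM cells (SD, n = 3 each), and 7.08 ± 0.91 after LPS and 4.93 ± 0.42 unstimulated in control cells. The log2 fold change was 2.20 in ΔTrspM cells (standard error 0.49, adjusted p = 0.0109 from limma) and 2.14 in control cells (adjusted p = 0.0120). The LPS response of *Gstt1* differed between the genotypes by 0.06 (interaction, 95% interval −1.45 to 1.57).

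*Gstt1* was a dim gene before LPS, with unstimulated signals near the floor of the scale, so that no exact fold can be read from these values. As deposited, its linear signal was 100.2, 15.8 and 177.7 in LPS-stimulated ΔTrspM cells, 85.0, 48.7 and 259.8 in LPS-stimulated control cells, 21.4, 17.6 and 13.3 in unstimulated ΔTrspM cells and 30.1, 14.2 and 7.4 in unstimulated control cells. The value of 15.8 came from the dim array and was below that of unstimulated ΔTrspM replicates 1 and 2 before the arrays were scaled. With no scaling both calls were lost (adjusted p = 0.109 in ΔTrspM and 0.0887 in control cells), as they were with the methods' t-test (0.0946 and 0.131), and the control call was lost without unstimulated control replicate 3 (log2 fold change 1.92, adjusted p = 0.0518). The size depends on the constant added, at 1.32 and 1.24 with 64 and at 2.96 and 3.01 with 1, in ΔTrspM and control cells.

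Among all genes, the share that passed as higher after LPS was 7.29% in ΔTrspM cells and 7.09% in control cells, and the share that passed as lower was 8.51% and 8.54%. Of the 9 glutathione transferases, 1 passed as higher and 0 as lower in each genotype, in both cases *Gstt1*. At an unadjusted p under 0.05 there were 2 in each genotype, *Gstt1* and *Mgst1*, beside 5185 of all 18193 genes in ΔTrspM cells and 5115 in control cells. The LPS and unstimulated arrays did not overlap for 34.3% of all genes in ΔTrspM cells and for 34.1% in control cells, against 2 of the 9 genes (*Gstt1* and *Mgst1*) in ΔTrspM cells and 1 (*Gstt1*) in control cells. The median log2 difference between LPS and unstimulated cells over the 9 genes was −0.13 in ΔTrspM cells, where it was −0.03 over all genes, and −0.08 in control cells, where it was −0.05. How the LPS calls over all genes divide depends on the scaling, since 46.1% of them were higher in ΔTrspM cells by quantile normalization, 33% by centring on the median, 37.7% by a trimmed mean and 7.88% with no scaling. In control cells these shares were 45.4%, 45.9%, 34.2% and 44.6%.

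The genes whose signals followed *Gstt1* most closely over the 12 arrays were *Gm13889*, *Lipg*, which encodes endothelial lipase, and *Ifnb1*, which encodes interferon beta (Pearson r 0.94 each). The r of 0.94 describes arrays that share the same split by LPS and carries no test. *Ifnb1* had log2 differences between LPS and unstimulated cells of 4.04 in ΔTrspM and 4.02 in control cells. No other glutathione transferase both had a mean log2 signal of at least 6 and varied enough among the group means to be compared with other genes in this way, since *Gstt1* spanned 2.30 and the others 0.30 to 0.60.

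*Mgst1*, a membrane enzyme of the endoplasmic reticulum and the outer mitochondrial membrane that also reduces lipid hydroperoxides, had the opposite tendency and lay just outside the threshold. In ΔTrspM cells its log2 signal was 12.21, 12.27 and 12.23 after LPS and 12.85, 12.94 and 12.71 unstimulated. In control cells it was 12.66, 12.05 and 12.38 after LPS and 12.94, 12.61 and 12.87 unstimulated. The arrays of ΔTrspM cells did not overlap, those of control cells did, and the LPS culture was the lower one in 6 of 6 same-numbered pairs. The log2 difference was −0.60 in ΔTrspM cells (standard error 0.20, adjusted p = 0.0608 from limma) and −0.44 in control cells (adjusted p = 0.164). The difference in ΔTrspM cells passed once replicate was fitted as a block (adjusted p = 0.0436). Averaging *Mgst1* with its second probe set, whose mean log2 signal of 5.17 was close to the floor of the scale, brought it to −0.27 in ΔTrspM and −0.11 in control cells. In ΔTrspM cells trimmed-mean scaling gave −0.32 and leaving the arrays unscaled gave −1.35, and neither passed (adjusted p = 0.308 and 0.0766). The interaction of genotype and LPS was −0.16 (95% interval −0.76 to 0.45), so a larger fall in ΔTrspM cells was not shown.

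The 250 bases before the more upstream of 2 RefSeq start sites of *Mgst1* (chr6:138140277-138140526, plus strand, GRCm38.p6) are shown because they held the only match to the antioxidant response element among the promoters of these genes. Capitals mark the match to TGACNNNGC, which lies on the minus strand with its first printed base at −56 from the start:
Mgst1: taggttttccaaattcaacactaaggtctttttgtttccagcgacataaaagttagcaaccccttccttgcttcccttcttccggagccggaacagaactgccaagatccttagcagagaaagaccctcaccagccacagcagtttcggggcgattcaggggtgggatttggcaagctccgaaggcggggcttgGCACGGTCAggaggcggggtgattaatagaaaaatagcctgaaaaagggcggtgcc

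Promoters were found in the RefSeq table for 8 of the 9 genes, with 10 start sites. *Gsta4* had no entry. Both strands of the 250 bases before each start were searched, and 10.2% of 32851 promoters in the table held TGACNNNGC. A second motif, the AP-1 site TGANTCA, reads the same way on both strands, was in 6.75% of them and was found for *Gstp1* and *Mgst2*. The 30 bases around these matches are given with the AP-1 letters in capitals, for *Gstp1* at chr19:4037968-4037997 on the minus strand and for *Mgst2* at chr3:51661116-51661145 on the plus strand, where a longer annotated form of *Mgst2* runs through the window:
Gstp1: ctccaacgtgtTGAGTCAgcatccggggcg
Mgst2: cccaatcctgtTGACTCAactctgttgcct
The first capital stands at −74 from the start of *Gstp1* and at −52 from that of *Mgst2*. The windows of *Gstt1*, *Gstm1*, *Gstm2*, *Gsto1* and *Mgst3* held neither string of letters, nor did that of the second start of *Mgst1*. The windows of *Gstt1* and of the second starts of *Gstm1* and *Mgst1* also overlap the annotated span of their gene, and which start these macrophages use is not known. A match is a description of the sequence and shows no binding.

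*Gsto1*, the omega-class enzyme that reduces mixed disulfides of glutathione and dehydroascorbate, was bright in all groups. In ΔTrspM cells its log2 signal was 12.16, 11.76 and 11.96 after LPS and 12.21, 12.32 and 12.02 unstimulated, and in control cells it was 11.84, 11.81 and 11.96 after LPS and 12.14, 11.94 and 12.07 unstimulated. The LPS culture was the lower one in 3 of 3 pairs of each genotype, while the groups overlapped. The log2 differences were −0.22 in ΔTrspM (adjusted p = 0.459 from limma) and −0.18 in control cells (adjusted p = 0.558). On the second probe set of *Gsto1* the differences were −0.27 and −0.31, with LPS arrays below all unstimulated arrays in each genotype, and these did not pass (adjusted p = 0.390 and 0.308).

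The mu-class gene *Gstm1*, which encodes a main hepatic transferase, hardly differed with LPS on its brightest probe set, with log2 differences of 0.04 in ΔTrspM and 0.06 in control cells (95% intervals −0.46 to 0.53 and −0.44 to 0.56). Of its other 3 probe sets, that with a mean log2 signal of 10.74 gave 0.02 and 0.05, and the dimmest, with a mean of 6.95, gave 0.26 and 0.27, neither of which passed. The third, with a mean log2 signal of 8.11, had LPS differences of 0.50 in ΔTrspM cells (adjusted p = 0.326 from limma) and 0.71 in control cells (adjusted p = 0.153), and was higher after LPS in 6 of 6 pairs. Mu-class transcripts are close copies of each other on chromosome 3, and probe sets of the x type can bind more than their own gene. That with the mean of 8.11 is of this type, and so are the tested probe sets of *Gstm1* and *Gsto1*.

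**Figure D2:**
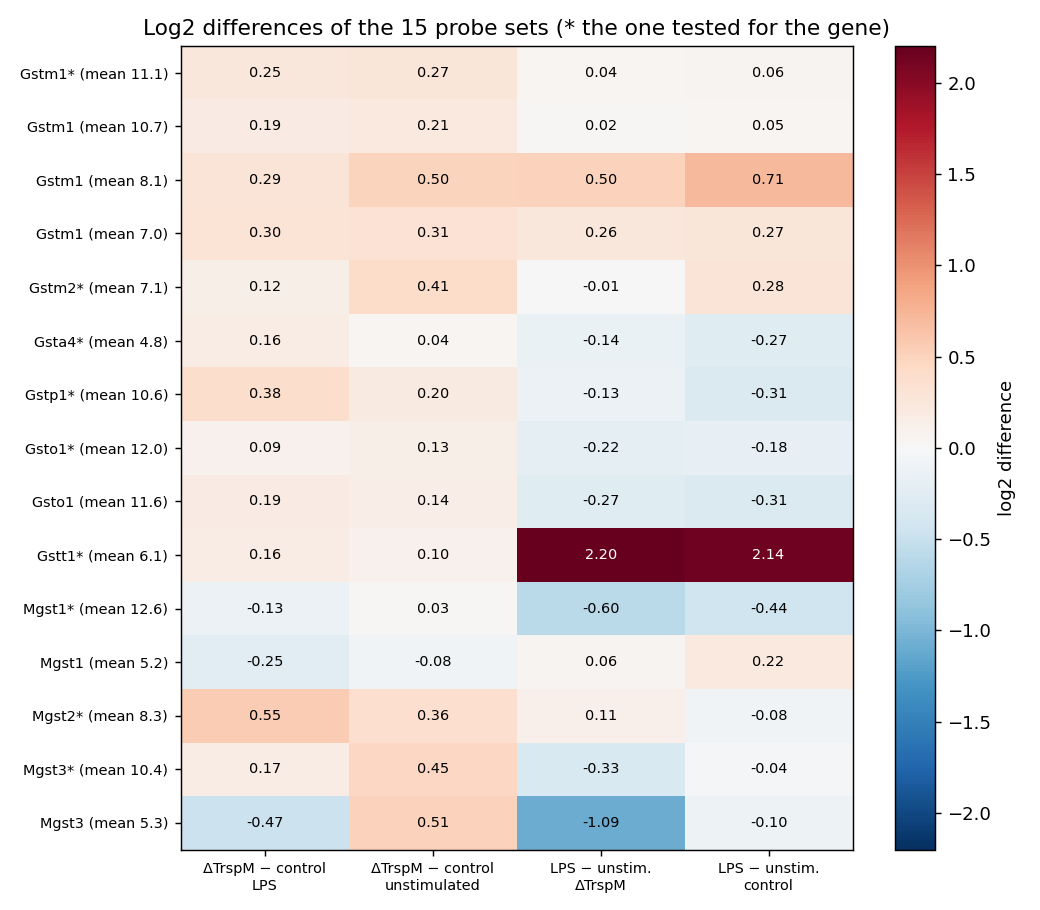
Log2 differences of each of the 15 probe sets in the 4 comparisons, with the mean log2 signal of the probe set over all arrays in brackets and an asterisk at the probe set tested for the gene. The *Gstt1* probe set stands alone at 2.20 and 2.14 after LPS, and the dim second probe sets of *Mgst1* (mean 5.2) and *Mgst3* (mean 5.3) differ in sign from the bright ones in some comparisons.

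Between genotypes, 0 of the 9 glutathione transferases passed the test in unstimulated cells (adjusted p = 0.9999 for each, limma), and 0 had an unadjusted p under 0.05. All 9 had a higher mean in ΔTrspM than in control cells, by 0.03 for *Mgst1* to 0.45 for *Mgst3* (median 0.20 on the log2 scale). Over all genes the median was 0.04, 56.5% had a higher mean in ΔTrspM cells, and 0% passed the test, with 435 genes at an unadjusted p under 0.05. The arrays of the genotypes did not overlap for 7.32% of all genes and for 0 of the 9. The direction rested on few arrays: without unstimulated control replicate 2, 5 of the 9 genes were lower in ΔTrspM cells, and without replicate 2 of all groups 2 were lower and the median of the 9 was 0.01. Unstimulated control replicate 2 is also the array where the log2 of the summed LPS response signal was 14.53, and the part of this in the differences was not tested.

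After LPS 8 of the 9 genes had a higher mean in ΔTrspM cells, with *Mgst1* the exception at −0.13 and *Mgst2* at the other end with 0.55, and this direction turned with the scaling, as 5 of 9 were lower with centring on the median and 9 of 9 with no scaling. Without LPS-stimulated ΔTrspM replicate 1, 5 of 9 were lower as well. The median over the 9 genes was 0.16, against 0.04 over all genes, of which 55.3% had a higher mean in ΔTrspM cells. With no scaling the median of all genes was itself −0.60, and 5 of the 9 lay above it, as 8 of the 9 lay above the median of all genes by quantile normalization. No glutathione transferase passed (adjusted p = 0.944 to 0.994, limma) and 0 had an unadjusted p under 0.05, while over all genes 0.011% passed (2 genes) and 1051 had an unadjusted p under 0.05. With the replicate block *Mgst2* had an unadjusted p of 0.0194 after LPS and 0.0089 averaged over both stimuli (limma). Neither passed (adjusted p = 0.468 and 0.393, limma). The arrays did not overlap for 9.14% of all genes and for 0 of the 9. Averaged over both stimuli 0.022% of all genes passed (4 genes) and 0 of the 9 (adjusted p = 0.963 to 0.984), and for the interaction 0% of all genes passed, with 555 at an unadjusted p under 0.05, and 0 of the 9.

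Measures related to sample composition and RNA quality are given here for the same comparisons. The median log2 difference between ΔTrspM and control cells over the 14 stromal markers was 1.03 after LPS, with 11 of 14 higher, and 0.58 in unstimulated cells, with 11 of 14 higher, and 0 passed in either. The paper reports *Col1a1*, *Sparc*, *Bgn* and *Tagln*, which are in this list, as more highly expressed in ΔTrspM macrophages, with array data verified by qPCR. Between genotypes the list is therefore not a measure of sample composition alone. The macrophage markers had median differences of −0.10 after LPS, with 3 of 10 higher, and −0.12 in unstimulated cells, with 2 of 10 higher. For the neutrophil and progenitor markers the medians were −0.01 (5 of 11 higher) and −0.13 (4 of 11 higher). The ratio of the 3' to the 5' actin signal, a sign of RNA quality, was 1.09 to 1.24 in ΔTrspM and 0.88 to 1.17 in control cells after LPS, and 1.07 to 1.11 in ΔTrspM and 1.05 to 1.06 in control cells without it. With LPS, 10 of the 11 neutrophil and progenitor markers were higher in ΔTrspM cells (median log2 difference 0.78) and 9 of 11 in control cells (median 0.63). Of the stromal markers, 13 of 14 were higher with LPS in ΔTrspM cells (median 0.64) and 7 of 14 in control cells (median 0.01). The 1 stromal marker that passed with LPS in each genotype was *Pdgfrb*. It rose by 2.99 in ΔTrspM (adjusted p = 0.0052, limma) and 4.45 in control cells (adjusted p = 0.00047), and it enters the summed stromal signals given above. The part of these measures in the differences between genotypes and with LPS was not tested.

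**Figure D3:**
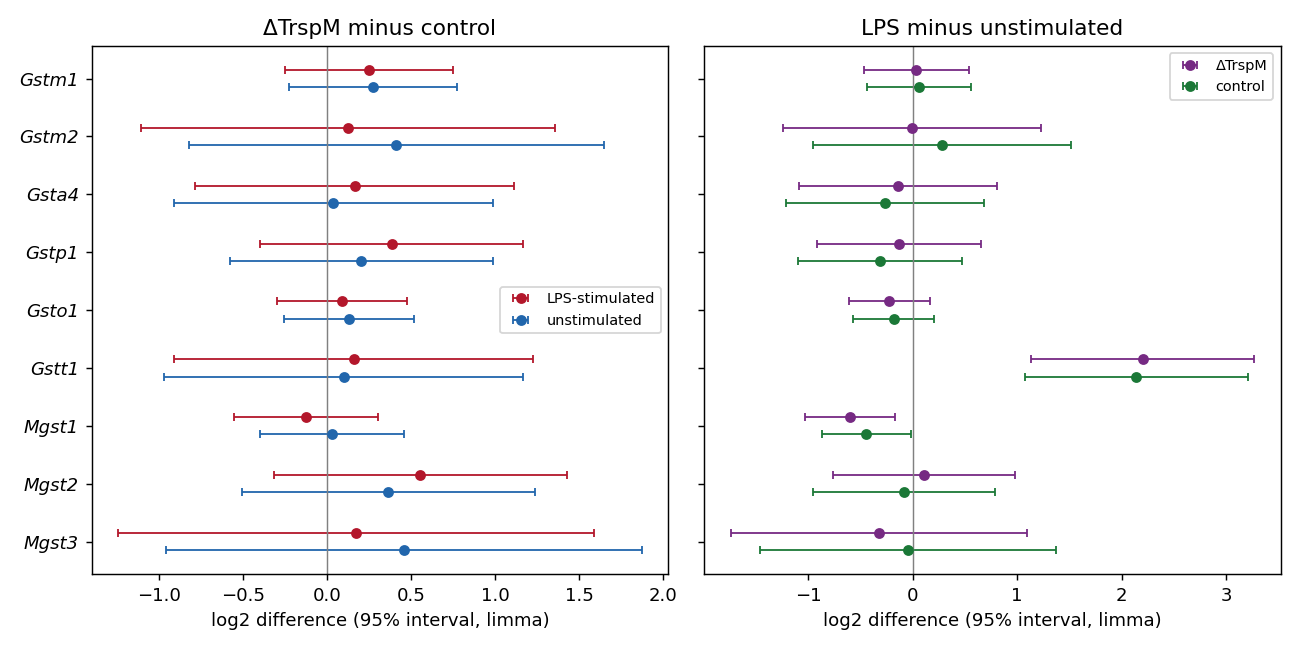
Log2 differences of the 9 glutathione transferases with 95% intervals from limma, between ΔTrspM and control cells with each stimulus (left) and between LPS and unstimulated cells of each genotype (right). The intervals are from the fit without the replicate block. Every interval on the left includes 0, and on the right those of *Gstt1* lie wholly above 0 and those of *Mgst1* wholly below it, before adjustment over all genes.

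*Mgst2*, which encodes a membrane enzyme able to make leukotriene C4, had the largest of these differences after LPS and was higher in ΔTrspM cells in each of 6 same-numbered pairs. Its log2 signal after LPS was 8.89, 7.96 and 8.84 in ΔTrspM and 8.21, 7.30 and 8.52 in control cells. In unstimulated cells it was 8.58, 8.19 and 8.60 in ΔTrspM and 8.54, 7.36 and 8.38 in control cells. The groups overlapped because replicate 2 was the lowest of each. The log2 difference was 0.55 after LPS (95% interval −0.32 to 1.43, adjusted p = 0.944 from limma) and 0.36 without it (−0.51 to 1.23). These intervals count the differences between replicates as spread. With the replicate block the standard error was 0.20, against 0.40 without the block. The unadjusted p after LPS was then 0.0194, and neither difference passed (adjusted p = 0.468 and 0.9999, limma). Over all genes 18.5% were higher in ΔTrspM cells in 3 of 3 pairs after LPS and 17.8% in unstimulated cells, and among the 9 these were *Mgst2* and *Gstp1* after LPS and *Gstm1*, *Gstm2*, *Mgst2* and *Mgst3* without it.

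*Gstp1*, the pi-class enzyme that also binds and restrains the stress kinase JNK, had log2 signals after LPS of 10.75, 10.47 and 10.78 in ΔTrspM and 10.68, 9.63 and 10.54 in control cells. In unstimulated cells they were 10.40, 10.72 and 11.28 in ΔTrspM and 10.74, 9.97 and 11.09 in control cells. Replicate 2 was the low array of the control cells with either stimulus, and the genotypes overlapped. The differences of 0.38 after LPS and 0.20 without it did not pass (95% intervals −0.40 to 1.17 and −0.58 to 0.99). With the replicate block the standard error was 0.26, against 0.36 without the block, and neither passed (adjusted p = 0.695 and 0.9999, limma).

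For *Gstm1* the signals after LPS were 11.10, 11.55 and 10.95 in ΔTrspM and 10.88, 11.02 and 10.96 in control cells, and those without it 10.95, 11.59 and 10.96 in ΔTrspM and 10.93, 10.99 and 10.76 in control cells. Here ΔTrspM replicate 2 was the high array with either stimulus. The log2 difference was 0.25 after LPS and 0.27 without it (standard error 0.23 each), and the other 3 probe sets were on the same side, at 0.19 to 0.30 after LPS and 0.21 to 0.50 without it.

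*Mgst3*, a membrane enzyme with peroxidase activity toward lipid hydroperoxides, varied widely between replicates. Its log2 signal after LPS was 10.73, 9.43 and 11.04 in ΔTrspM and 10.40, 9.11 and 11.18 in control cells. In unstimulated cells it was 10.61, 10.15 and 11.43 in ΔTrspM and 10.54, 9.14 and 11.13 in control cells. Replicate 2 lay below the others throughout, and the differences between genotypes of 0.17 after LPS and 0.45 without it had a standard error of 0.65. With the replicate block the standard error was 0.22, and neither difference passed (adjusted p = 0.838 and 0.9999, limma). The dim second probe set had differences of −0.47 and 0.51.

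*Gstm2*, a second mu-class gene, had log2 signals after LPS of 7.55, 6.24 and 7.95 in ΔTrspM and 7.00, 6.42 and 7.95 in control cells. Without LPS they were 6.68, 6.76 and 8.33 in ΔTrspM and 6.65, 6.54 and 7.35 in control cells. The spread of 0.44 to 0.93 (SD, n = 3) within its groups exceeded the differences between genotypes of 0.12 and 0.41. With the replicate block the standard error of these differences was 0.28, against 0.56 without the block, and neither passed (adjusted p = 0.929 and 0.9999, limma). *Gsta4*, an alpha-class enzyme specialized for 4-hydroxynonenal, a product of lipid peroxidation, lay near the floor of the scale. It was at 5.36, 4.53 and 4.48 in LPS-stimulated ΔTrspM, 4.43, 4.63 and 4.82 in LPS-stimulated control, 4.48, 4.53 and 5.79 in unstimulated ΔTrspM and 4.51, 4.42 and 5.75 in unstimulated control cells. Only replicate 3 of the unstimulated cells and replicate 1 of the LPS-stimulated ΔTrspM cells exceeded 5, and no comparison of *Gsta4* can be read at this brightness.

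Within the groups the replicates differed by more than the genotypes for several of these genes, and the low array was often replicate 2, a pattern chosen for description after its values were seen. *Mgst2* and *Mgst3* were lowest on replicate 2 in all 4 groups, as were 11.5% of all genes, and *Gstm2*, *Gstp1* and *Gsto1* in 3 groups. Averaged over the groups, replicate 2 lay below the mean of replicates 1 and 3 by a log2 difference of −1.43 for *Mgst3*, −0.94 for *Gstm2*, −0.87 for *Mgst2* and −0.58 for *Gstp1*, and above it by 0.35 for *Gstm1*. The median over the 9 genes was −0.45, and over all genes −0.09. The stromal markers had a median of −1.86, and 8 of 14 were lowest on replicate 2 in all 4 groups. The neutrophil and progenitor markers had −0.95, with 7 of 11 lowest there in all 4 groups, and the LPS response genes 0.81. *Mgst1* differed by −0.14. Which of these genes other cells of the cultures express, and the part of the lower median signal of the replicate 2 arrays, was not tested.

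**Figure D4:**
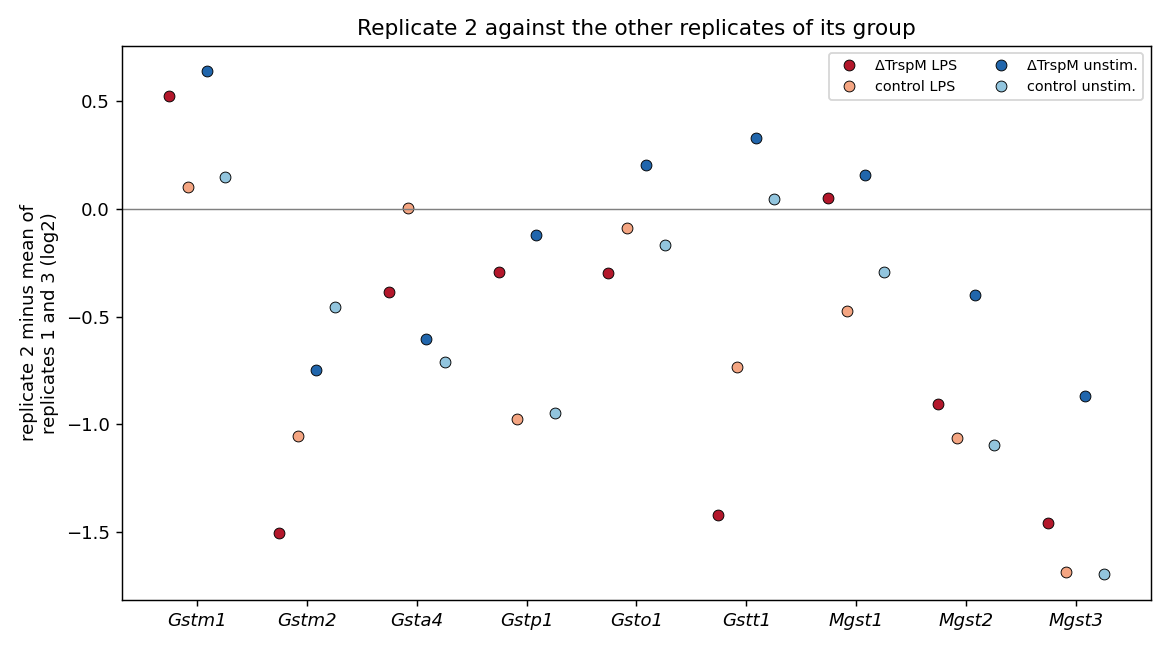
Log2 signal of replicate 2 minus the mean of replicates 1 and 3 in each group, for the 9 glutathione transferases. *Mgst3* is below 0 in all 4 groups (mean −1.43), as are *Gstm2*, *Gstp1* and *Mgst2*, and *Gstm1* is above 0 in all 4 (mean 0.35).

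Of 18 further glutathione transferases and MAPEG genes, 2 rose and 0 fell with LPS in ΔTrspM cells, and 2 rose and 1 fell in control cells. As shares of the 18 these are 11.1%, 0%, 11.1% and 5.56%, beside 7.29%, 8.51%, 7.09% and 8.54% of all genes, so nothing particular to the list is read from the counts. *Ptges*, the microsomal prostaglandin E synthase, had log2 signals in ΔTrspM cells of 10.22, 11.85 and 10.50 after LPS and 6.70, 7.62 and 6.58 unstimulated, and in control cells of 9.99, 12.36 and 10.57 after LPS and 6.72, 8.71 and 5.40 unstimulated. All LPS arrays were above all unstimulated arrays, with log2 fold changes of 3.89 in ΔTrspM (adjusted p = 0.0083, limma) and 4.03 in control cells (adjusted p = 0.0064). *Gstm7*, a mu-class gene of the same cluster as *Gstm1*, was at 7.57, 7.74 and 7.27 after LPS and 6.28, 6.36 and 5.88 unstimulated in ΔTrspM cells, and at 6.97, 6.97 and 7.06 after LPS and 6.0, 6.46 and 6.08 unstimulated in control cells. Its groups did not overlap either, and it rose by 1.36 (adjusted p = 0.0015) and 0.82 (adjusted p = 0.0213). Between genotypes *Gstm7* had a log2 difference of 0.53 after LPS (adjusted p = 0.815) and its interaction was 0.54 (adjusted p = 1.00).

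*Alox5ap*, which presents arachidonic acid to the enzyme that starts leukotriene synthesis, was at 12.92, 12.69 and 12.95 in LPS-stimulated ΔTrspM, 12.74, 12.22 and 12.81 in LPS-stimulated control, 13.34, 13.40 and 13.43 in unstimulated ΔTrspM and 13.39, 13.33 and 13.36 in unstimulated control cells. It fell by 0.77 with LPS in control cells (adjusted p = 0.0180, limma), and its difference of −0.54 in ΔTrspM cells did not pass (adjusted p = 0.0829; 0.0483 with the replicate block). *Hpgds*, the sigma-class transferase that makes prostaglandin D, was named after its values were seen and had LPS differences of −1.33 in ΔTrspM and −1.35 in control cells, neither of which passed (adjusted p = 0.0965 and 0.0920).

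**Figure D5:**
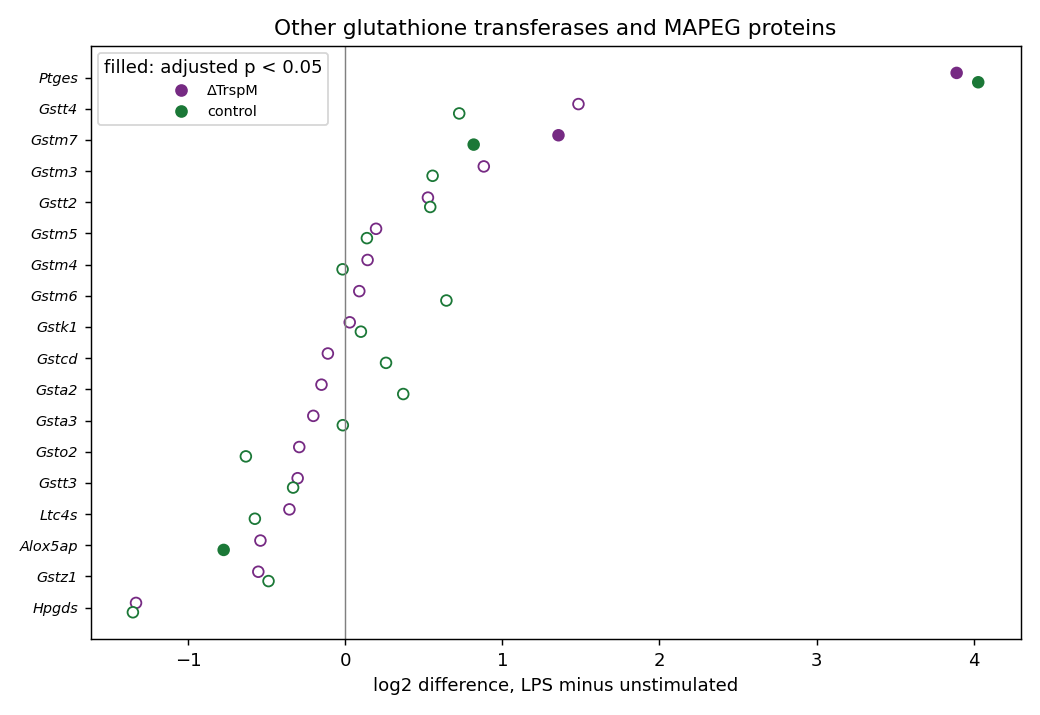
Log2 differences between LPS and unstimulated cells for 18 other glutathione transferases and MAPEG genes, in ΔTrspM and in control cells, with filled points at an adjusted p under 0.05 from limma. *Ptges* and *Gstm7* are filled in both genotypes, and *Alox5ap* in control cells.

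Genes that supply or use glutathione, export its conjugates or belong to the NRF2 system were not called between genotypes. Over 75 genes in 6 such lists, the 18 above included, 0 passed in unstimulated cells with 0 at an unadjusted p under 0.05, and 0 passed after LPS with 2 at that level. Averaged over both stimuli 0 passed with 3 at that level, beside 887 of all genes. A higher mean in ΔTrspM cells, unstimulated and after LPS, was held by 14 and 15 of 18 NRF2 targets outside glutathione. It was held by 10 and 9 of 14 synthesis and turnover genes, and 14 and 13 of the 18 above. For 9 peroxidases and glutaredoxins these were 7 and 7, for 10 genes of NRF2 and its regulators 7 and 6, and for 6 export genes 3 and 5. Among all genes they were 56.5% and 55.3%, and the directions were not tested. With LPS 9 of the 75 passed in ΔTrspM cells, 12% against 15.8% of all genes in either direction, and 13 in control cells, 17.3% against 15.6%. With the replicate block these were 18 of 75 in ΔTrspM cells, 24% against 22.5% of all genes, and 24 of 75 in control cells, 32% against 22.6%. None of the counts of single lists is read as particular to the list. Of 14 genes of glutathione synthesis and turnover, 2 rose and 0 fell in ΔTrspM cells, and 2 rose and 2 fell in control cells. *Slc7a11*, the transporter that brings in cystine for glutathione synthesis, rose by 3.60 in ΔTrspM (adjusted p = 0.0046, limma) and 3.74 in control cells (adjusted p = 0.0035), and *Ggct*, which breaks down gamma-glutamyl dipeptides, by 0.67 and 1.10. *Glo1* and *Hagh*, the glyoxalases, which use glutathione to clear methylglyoxal, fell in control cells by 0.84 and 0.64, and had −0.62 and −0.30 in ΔTrspM cells, which did not pass (adjusted p of *Glo1* 0.0632, and 0.0195 with the replicate block). With the block 4 genes of this list passed in ΔTrspM and 7 in control cells.

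Of 9 glutathione peroxidases and glutaredoxins, 0 passed in ΔTrspM cells with 1 at an unadjusted p under 0.05, and 2 fell in control cells, *Glrx5*, a mitochondrial glutaredoxin of iron-sulfur cluster assembly, by 1.02 and *Glrx*, which removes glutathione from proteins, by 0.69. With the replicate block 2 passed in ΔTrspM cells, *Glrx5* (−0.88, adjusted p = 0.0315) and *Gpx4* (−0.53, adjusted p = 0.0489), and 3 in control cells. Of 6 conjugate export genes 0 passed in either genotype, with 1 at an unadjusted p under 0.05 in ΔTrspM and 2 in control cells. Over all 18193 genes, 5185 in ΔTrspM and 5115 in control cells were at that level with LPS. The unadjusted counts of single lists are not read as particular to the list either. *Abcc5*, which encodes an organic anion and cyclic nucleotide pump, had differences of 1.15 in ΔTrspM and 1.13 in control cells and passed with the replicate block (adjusted p = 0.0017 and 0.0019). Of 10 genes of NRF2 and its regulators, 4 rose and 1 fell in ΔTrspM cells, and 3 rose and 1 fell in control cells (5 and 6 passed with the block), where 7.29% and 7.09% of all genes rose and 8.51% and 8.54% fell in ΔTrspM and control cells. *Bach1*, a repressor at antioxidant response elements, fell by 1.57 in ΔTrspM (adjusted p = 0.0016, limma) and 1.47 in control cells (adjusted p = 0.0022). *Keap1*, the inhibitor of NRF2, rose by 1.13 and 0.93, and the small MAF partners *Maff* and *Mafk* rose by 2.40 and 1.65 in ΔTrspM and by 2.69 and 1.37 in control cells. Of 18 NRF2 targets outside the glutathione system, 0 passed with LPS in either genotype, with 0 at an unadjusted p under 0.05 in ΔTrspM and 3 in control cells. With the replicate block 3 fell in ΔTrspM cells, *Akr1b8*, *Osgin1* and *Cbr1*, with differences of −0.72, −1.18 and −0.95, and 4 in control cells, those 3 and *Hmox1*, at −0.78, −1.41, −0.80 and −0.72. In the main fit, which has no block, *Gstt1* was the sole member of the 9 transferases to pass.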

How the data were processed

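The 12 Affymetrix arrays were normalized by the authors in Expression Console, and the deposited intensity of each of 45101 probe sets is linear. How probes were summarized is not given in the sources read. Signals of the 45037 probe sets that are not controls were quantile-normalized, 16 was added and log2 was taken. Of these, 34945 carried 1 gene symbol, 932 several and 9160 none. Each of 18193 genes was represented by its probe set with the highest mean. limma 3.58.1 in R 4.3.3 was fitted to the 4 groups together (8 residual degrees of freedom), with Benjamini-Hochberg adjustment over all genes and a threshold of 0.05, and was tested on simulated data. With 3 arrays on each side the smallest exact two-sided p is 0.1. After group means were removed, same-numbered arrays of compared groups correlated at 0.13 to 0.44 in 12 of 12 pairs, all over 0.1, so the numbers were taken to pair the cultures, and a fit with the replicate number as a block is given where it changes a call. The genes and lists were chosen with earlier results of these data known. Named were the 9 genes, list genes that passed (at most 4 for each list and contrast), and the 3 genes most correlated with a bright, varying member. Some listed genes are not analysed here. Promoters and their coordinates are those of RefSeq, GRCm38.p6. The alternatives were other scalings, added constants, probe set rules, a filter on dim genes, other fits and leaving out arrays.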

Additional observations from a re-analysis of the deposited data

How the results depend on the processing

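The count of glutathione transferases called after LPS in ΔTrspM cells was 1, and 2 with 64 added, when dim genes were left out (mean log2 under 6), with trend and robust options and with the replicate block. *Mgst1* was then called besides *Gstt1*. With the methods' t-test the 1 gene was *Mgst1* (adjusted p = 0.0270) and *Gstt1* lost the call (0.0946). The count was 0 with no scaling. In control cells it was 1, and 0 with no scaling and with the methods' t-test. Leaving out single arrays gave 1 to 2 in ΔTrspM and 0 to 1 in control cells. The counts between genotypes stayed at 0 under each of these settings and without replicate 2 of all groups, an alternative chosen after seeing the data. Over all 25 alternatives the log2 fold change of *Gstt1* with LPS was 1.32 to 2.96 in ΔTrspM and 1.24 to 3.01 in control cells, and that of *Mgst1* was −1.35 to −0.27 and −0.59 to −0.11. Of the values of single transferases under the alternatives, 811 kept direction and call, 5 lost the call, 6 gained it, and 74 turned sign without being called in either.

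Over all genes, the count called between genotypes after LPS was 2. It was 1 with centring on the median, 4 with 64 added, 1 with the mean of probe sets, 0 with a mean log2 of at least 6, 0 with only the arrays compared, 0 with the methods' t-test, 0 without replicate 2 of all groups, and 2 to 5 without single arrays. In unstimulated cells it was 0, and 4 with 64 added, 3 with the mean of probe sets, 3 with a mean log2 of at least 6, 4 with trend and robust options, and 0 to 1 without single arrays. Averaged over both stimuli it was 4, and 1 with centring on the median, 1 with no scaling, 2 with a mean log2 of at least 6 and 0 without replicate 2 of all groups. The interaction gave 0, 3 with 1 added and 0 to 1 without single arrays.

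With LPS in ΔTrspM cells 1326 genes were higher, and 262 with no scaling, 2142 with every probe set tested and 758 with the methods' t-test. In control cells 1290 were higher, and 398, 2182 and 427 under the same 3. In ΔTrspM cells 1548 were lower, and 2648 with centring on the median, 3063 with no scaling, 2361 with every probe set, 2397 with the replicate block, 618 with the methods' t-test, 1005 without replicate 2 of all groups and 798 to 1705 without single arrays. In control cells 1554 were lower, and 495 with no scaling, 2362 with every probe set, 1028 with only the arrays compared, 2444 with the block, 397 with the methods' t-test and 950 to 1752 without single arrays. The causes of these changes were not tested. The number of arrays limits the precision, and *Gsta4* and the second probe sets of *Mgst1* and *Mgst3* were too dim to be read. *Gsta4* gave no value under the filter on dim genes.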
